A study of Homo sapiens with 22 samples.

Results

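Imprinted genes were followed by chromosomal locus in HEK293 cells carrying dCas9 fusions. The 36 genes were listed by name as known imprinted genes. No measured value entered that rule, but the list was chosen with earlier results of these data known. Of the 36 genes, 34 had a row among the 48162 genes of the read count table, and 21 had enough reads to be tested. SNURF and PEG13 had no row under their own identifier, and their levels were not analysed here.

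HEK293 is an established human embryonic kidney line. Poly-A selected RNA was sequenced from 6 groups of 2 biological replicates each. Cells were treated with doxycycline for 48 h and an equal number of cells was sorted per sample, for GFP and BFP together in the 5 fusion groups and for BFP in the WT group. An H3K27ac profiling arm of the same study was not used here. WT cells had no fusion and carried an sgRNA whose target the labels do not give; their treatment is labelled as none. The VPR sgHBB group had dCas9-VPR, a fusion of the activation domains VP64, p65 and Rta. The p300 sgHBB group had dCas9-p300, which carries a histone acetyltransferase. The p300 D1399Y sgHBB group had the same fusion with a substitution that impairs catalysis. The VPRP sgHBB group had dCas9-VPRP, which joins VPR and p300. These 4 groups shared a guide to HBB, the adult beta-globin gene, and the VPRP non-target group had dCas9-VPRP with a non-targeting guide. Whether a fusion line was 1 clone is not given in the sources used here, nor is it stated that replicates came from separate cultures, so p-values measure the spread between these samples, which may be technical.

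An imprinted gene is transcribed mainly from the copy inherited from 1 parent. The choice is set by DNA methylation laid down in egg or sperm at imprinting control regions, and it is kept in body cells by methylation maintenance and by zinc finger proteins that bind the methylated copy. Imprinted genes lie in clusters that hold paternally and maternally expressed genes side by side, often with a long noncoding RNA that silences its neighbours on the same chromosome. Many of them act on fetal growth, the placenta, the brain and metabolism. The libraries here count RNA from both copies together, so allele was not measured: a rise or a fall below may come from either copy.

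Total counts were 14894558 to 17479523 per library, and 13500 to 14909 genes reached 1 CPM, where CPM stands for counts scaled by library size to a common total. A gene is called here where edgeR's quasi-likelihood test, fitted over the 16694 genes with enough reads, gave a Benjamini-Hochberg adjusted p under 0.05. The replicates' variance was 2.86 (VPRP non-target) to 13.7 (VPR sgHBB) times that of counting alone. EP300 stood at 107 ± 5.4 CPM in WT, 98.7 ± 17.6 with VPR sgHBB, 1124 ± 11.2 with p300 sgHBB, 195 ± 1.19 with p300 D1399Y sgHBB, 375 ± 33.3 with VPRP sgHBB and 1172 ± 9.92 with VPRP non-target (SD, n = 2). The fusion RNA may be counted there, and EP300 was about 3 times as high in VPRP non-target as in VPRP sgHBB. HBB averaged 1556 CPM in VPRP sgHBB, was 79.1 to 187 CPM in the other sgHBB groups and 0 in WT and VPRP non-target. Of the HEK293 markers, VIM, KRT8, KRT18 and NEFM were between 27.4 and 175 CPM in every group mean, but their sum was 360 CPM in WT, 295 in VPR sgHBB, 372 in p300 D1399Y sgHBB, 219 in p300 sgHBB, 221 in VPRP sgHBB and 236 in VPRP non-target. In VPRP sgHBB against WT, KRT8 rose and VIM and NEFM fell, each at least 2-fold, and all 4 were lower with active than with mutant p300. Their part in the results below was not tested. Of 5 measured markers of other cell types, COL1A1 was at 12.2 CPM in WT and 21.5 to 59.9 CPM in the fusion groups, and it was called higher in each; the other 4 (PTPRC, COL1A2, ALB and HBG1) summed to at most 0.791 CPM in any group. What part COL1A1-expressing cells had in the results below was not tested. In sorted bulk RNA, fewer cells expressing a gene and less RNA per cell cannot be told apart.

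Members of the 11p15 cluster rose together in cells with VPRP. All 6 of its measured members (H19, IGF2, KCNQ1OT1, CDKN1C, PHLDA2 and SLC22A18) rose in VPRP sgHBB against WT, where 59.1% of all tested genes were called and 31.1% were called higher. With VPRP non-target, 5 of the 6 rose, beside a background of 59.7% called and 31.2% called higher. The median log2 difference from WT of these 6 members was 1.64 in VPRP sgHBB and 2.01 in VPRP non-target, while the medians over all tested genes were 0.04 and 0.04. In each of VPR sgHBB, p300 sgHBB and p300 D1399Y sgHBB, 1 of the 6 rose (backgrounds 13.8%, 24.5% and 15.7% called higher), and none of these 5 comparisons with WT had a call for a lower level at this locus. All comparisons with WT share its 2 libraries, and in each of them the fusion and the added sort for GFP cannot be told apart.

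H19 (ENSG00000130600) and IGF2 (ENSG00000167244) are the classic reciprocal pair of this cluster: H19 is a maternally expressed noncoding RNA and IGF2 is a paternally expressed fetal growth factor, and they compete for shared enhancers. H19 stood at 0.807 and 1.23 CPM in the WT libraries, 1.84 and 1.16 with VPR sgHBB, 1.35 and 1.71 with p300 sgHBB, 2.83 and 2.56 with p300 D1399Y sgHBB, 3.65 and 4.31 with VPRP sgHBB, and 6.92 and 4.21 with VPRP non-target. The 4 VPRP libraries were thus above the other 8. IGF2 stood at 1.61 and 1.55 CPM in WT, 4.94 and 3.15 with VPR sgHBB, 1.59 and 3.18 with p300 sgHBB, 2.66 and 1.80 with p300 D1399Y sgHBB, 7.50 and 5.91 with VPRP sgHBB, and 5.41 and 5.87 with VPRP non-target. Here too the 4 VPRP libraries were the highest, and the VPR sgHBB libraries came next, apart from 1 p300 sgHBB library that lay between them. H19 rose 3.89-fold in VPRP sgHBB (log2 1.96, SE 0.354, adjusted p = 1.41e-05) and 5.40-fold in VPRP non-target (log2 2.43, SE 0.341, adjusted p = 1.96e-07). IGF2 rose 4.21-fold (log2 2.07, SE 0.307, adjusted p = 5.2e-07) and 3.55-fold (log2 1.83, SE 0.311, adjusted p = 5.44e-06) in the same comparisons. Both members of the pair were therefore higher in the same libraries, at summed levels over both copies.

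With the single fusions, 1 call each was made for IGF2 and H19, and whether the genes differed in response was not tested. IGF2 rose 2.56-fold with VPR sgHBB (log2 1.36, SE 0.327, adjusted p = 0.00218); with VPR sgHBB replicate 1 left out it no longer passed (adjusted p = 0.0566). H19 with VPR sgHBB was at log2 0.56 (SE 0.412). H19 rose 2.63-fold with p300 D1399Y sgHBB (log2 1.40, SE 0.374, adjusted p = 0.00409); with WT replicate 1 left out it no longer passed (adjusted p = 0.0703). IGF2 there was at log2 0.51 (SE 0.354). With p300 sgHBB neither was called, at log2 0.58 (SE 0.405, adjusted p = 0.248) for H19 and 0.60 (SE 0.349, adjusted p = 0.164) for IGF2. For H19, active against mutant p300 gave -0.82 (SE 0.342, adjusted p = 0.0672), which did not pass the test. VPRP sgHBB exceeded VPR sgHBB in H19 by 2.64-fold (adjusted p = 0.000626) and exceeded p300 sgHBB by 2.60-fold (adjusted p = 0.00139). For IGF2 VPRP sgHBB exceeded p300 sgHBB by 2.78-fold (adjusted p = 0.000134) and VPR sgHBB by 1.64-fold (adjusted p = 0.0241); the latter call was lost with DESeq2 and without VPRP sgHBB replicate 1 or VPR sgHBB replicate 2.

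The start of H19 is shown because no other member of this cluster had a RefSeq promoter window in the sources used here. The window is chr11:2001267-2001516 on the minus strand of GRCh38.p14, the 250 bases before the start, read 5′ to 3′ along the gene, with every CpG, the letter pair at which mammalian DNA is methylated, in capitals. It holds 4 CpG pairs, and 6 with the 50 bases after the start, against a median of 14 over the 35116 windows of 300 bases in the table.
H19: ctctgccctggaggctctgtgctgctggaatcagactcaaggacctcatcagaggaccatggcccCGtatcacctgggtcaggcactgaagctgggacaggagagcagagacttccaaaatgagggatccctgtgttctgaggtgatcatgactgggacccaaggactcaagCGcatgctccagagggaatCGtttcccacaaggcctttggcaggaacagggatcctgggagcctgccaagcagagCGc

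KCNQ1OT1, CDKN1C, PHLDA2 and SLC22A18 belong to the neighbouring domain of 11p15. KCNQ1OT1 (ENSG00000269821) is a paternally expressed long noncoding RNA that runs antisense inside KCNQ1 and silences maternally expressed genes around it. CDKN1C (ENSG00000129757), an inhibitor of cyclin-dependent kinases also called p57, PHLDA2 (ENSG00000181649), a restrainer of placental growth, and SLC22A18 (ENSG00000110628), a membrane transporter, are maternally expressed. KCNQ1OT1 stood at 0.538 and 1.55 CPM in WT, 1.46 and 1.23 with VPR sgHBB, 2.33 and 2.65 with p300 sgHBB, 2.25 and 0.484 with p300 D1399Y sgHBB, 2.48 and 4.75 with VPRP sgHBB, and 6.74 and 6.26 with VPRP non-target. Its WT libraries were unequal, as were those of p300 D1399Y sgHBB, and the VPRP non-target libraries were above all others. It rose 3.46-fold in VPRP sgHBB (log2 1.79, SE 0.43, adjusted p = 0.000565) and 6.14-fold in VPRP non-target (log2 2.62, SE 0.405, adjusted p = 1.13e-06). The size depended on single libraries: without WT replicate 2 these log2 values became 2.74 and 3.57, and the lowest values with a library left out were 1.21 (without VPRP sgHBB replicate 2, adjusted p = 0.0456) and 2.05 (without WT replicate 1). The call for p300 sgHBB (log2 1.24, SE 0.452, adjusted p = 0.0245) was lost with DESeq2, without WT replicate 1 and without p300 sgHBB replicate 2. Reads of KCNQ1 and of its antisense RNA cannot be told apart without strand, and the strand setting is not given in the sources used here. KCNQ1 itself stood at 3.88 CPM in WT, 3.14 in VPRP sgHBB and 3.05 in VPRP non-target, with no call in either comparison.

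CDKN1C stood at 7.26 and 5.30 CPM in WT, 7.16 and 7.60 with VPR sgHBB, 7.89 and 9.19 with p300 sgHBB, 5.61 and 3.46 with p300 D1399Y sgHBB, 11.9 and 10.1 with VPRP sgHBB, and 16.6 and 12.3 with VPRP non-target. PHLDA2 stood at 2.89 and 3.49 CPM in WT, 3.67 and 3.97 with VPR sgHBB, 3.18 and 4.06 with p300 sgHBB, 4.16 and 5.39 with p300 D1399Y sgHBB, 9.65 and 8.40 with VPRP sgHBB, and 16.0 and 13.2 with VPRP non-target. In both genes the VPRP non-target libraries were the highest, the VPRP sgHBB libraries came next, and neither overlapped the other 8. CDKN1C rose 1.74-fold (log2 0.80, SE 0.198, adjusted p = 0.000778) in VPRP sgHBB and 2.30-fold (log2 1.20, SE 0.193, adjusted p = 2.06e-06) in VPRP non-target. PHLDA2 rose 2.81-fold (log2 1.49, SE 0.212, adjusted p = 2.49e-07) and 4.57-fold (log2 2.19, SE 0.202, adjusted p = 2.53e-11). SLC22A18, whose group means lay between 5.39 ± 0.883 and 6.32 ± 2.09 CPM in the other 5 groups (SD, n = 2), was at 9.61 ± 1.17 in VPRP sgHBB, a 1.55-fold rise over WT (log2 0.64, SE 0.206, adjusted p = 0.00834). That call was lost without VPRP sgHBB replicate 1 or WT replicate 1.

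**Figure D1:**
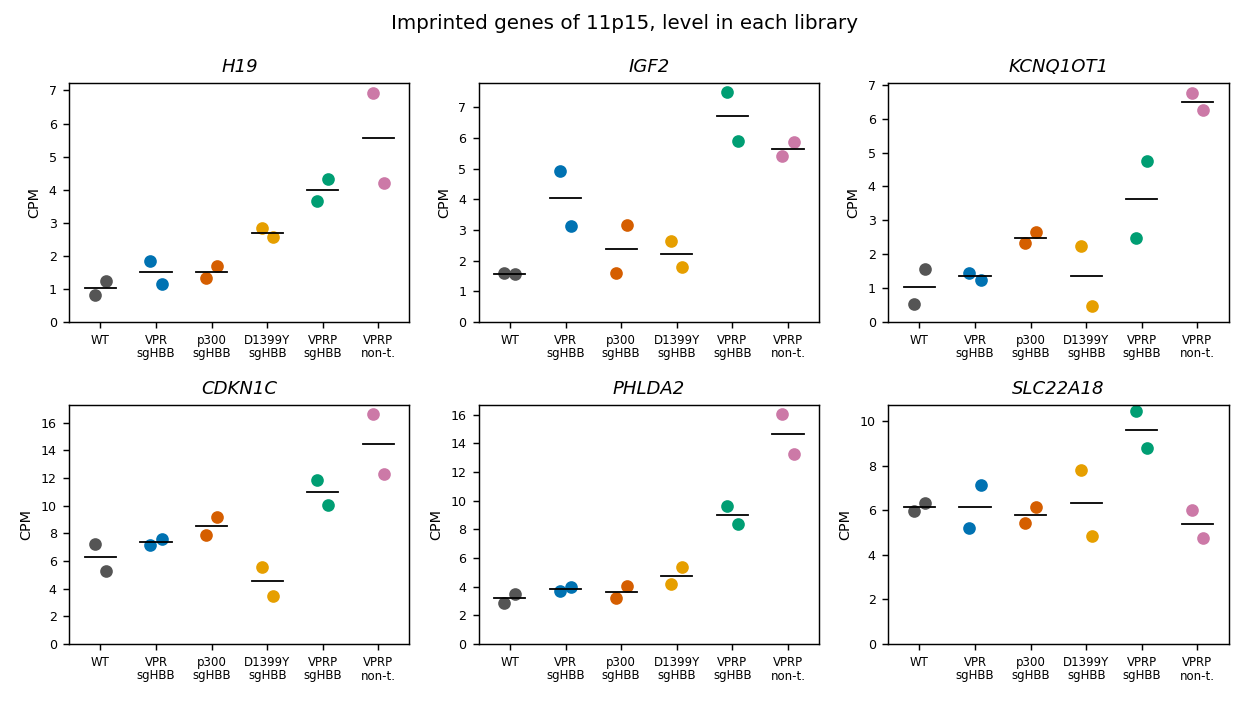
CPM in each library for H19, IGF2, KCNQ1OT1, CDKN1C, PHLDA2 and SLC22A18 by group (points are libraries, 2 per group; lines are group means; each panel has its own linear scale). For H19, IGF2, CDKN1C and PHLDA2 all 4 VPRP libraries lie above the other 8, and SLC22A18 is high in VPRP sgHBB alone.

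Between the 2 VPRP groups, 2 of the 6 members were called, close to the share over all genes. Against VPRP non-target, VPRP sgHBB was 1.62-fold lower in PHLDA2 (log2 -0.70, SE 0.173, adjusted p = 0.00228) and 1.78-fold higher in SLC22A18 (log2 0.83, SE 0.206, adjusted p = 0.00225); that share was 29.3%. The PHLDA2 call was lost without VPRP sgHBB replicate 2 (adjusted p = 0.0512) or VPRP non-target replicate 1 (0.0794), and the SLC22A18 call without VPRP non-target replicate 2 (0.0518). H19 (log2 -0.47, SE 0.275), IGF2 (0.24, SE 0.252), KCNQ1OT1 (-0.83, SE 0.33) and CDKN1C (-0.40, SE 0.177) did not pass. HBB lies on the same chromosome arm. It was at 0 in both VPRP non-target libraries, where 5 members were called higher. Whether HBB activation had a part at this locus in VPRP sgHBB was not tested. EP300 was 375 CPM with sgHBB and 1172 with the non-targeting guide, and its part in the difference was not tested.

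The p300 sgHBB and p300 D1399Y sgHBB groups differ by the substitution and also in EP300, at 1124 and 195 CPM, so catalysis and fusion level cannot be told apart in any comparison of these groups. CDKN1C was 1.86-fold higher with the active form (log2 0.89, SE 0.212, adjusted p = 0.0014), the 1 call among the 6 members, beside 30.4% of all genes called; it was lost without p300 D1399Y sgHBB replicate 2 (log2 0.61, adjusted p = 0.0563). Against VPR sgHBB, all 6 members were higher in VPRP sgHBB, with a median log2 of 0.98 (49.8% of all genes called, 24.7% higher). That count fell to 3 without VPRP sgHBB replicate 1, and to 4 without VPR sgHBB replicate 1 (CDKN1C and SLC22A18 lost) and with DESeq2 (IGF2 and CDKN1C lost); H19 and PHLDA2 passed in all 11 alternatives. Against p300 sgHBB, 4 of 6 were higher, namely H19, IGF2, PHLDA2 and SLC22A18, with a median of 1.02 over the 6 (27.9% called, 14.3% higher). Without VPRP sgHBB replicate 1 or p300 sgHBB replicate 1 SLC22A18 was lost.

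Most genes around the members did not rise with them. Of 10 tested neighbours, the 3 nearest on each side of each member in RefSeq order, 1 was higher and 4 were lower in VPRP sgHBB against WT (median log2 -0.26), and 2 were higher and 3 lower in VPRP non-target (median -0.20). Over all genes, 31.1% were called higher and 28% lower in VPRP sgHBB, and 31.2% and 28.5% in VPRP non-target. MRPL23, a mitochondrial ribosomal protein gene next to H19, rose by log2 0.38 and 0.35, and CARS1, a transfer RNA synthetase gene beyond PHLDA2, fell by 0.38 and 0.48. The low-count MRPL23-AS1, which also borders H19, went from 34 counts over the WT libraries to 4 in VPRP sgHBB and 8 in VPRP non-target, opposite to H19. Of these neighbours CD81, TSSC4, KCNQ1 and OSBPL5 are themselves reported as imprinted in some tissues; CD81 rose by log2 0.24 in VPRP non-target and the others had no call in these 2 comparisons.

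**Figure D2:**
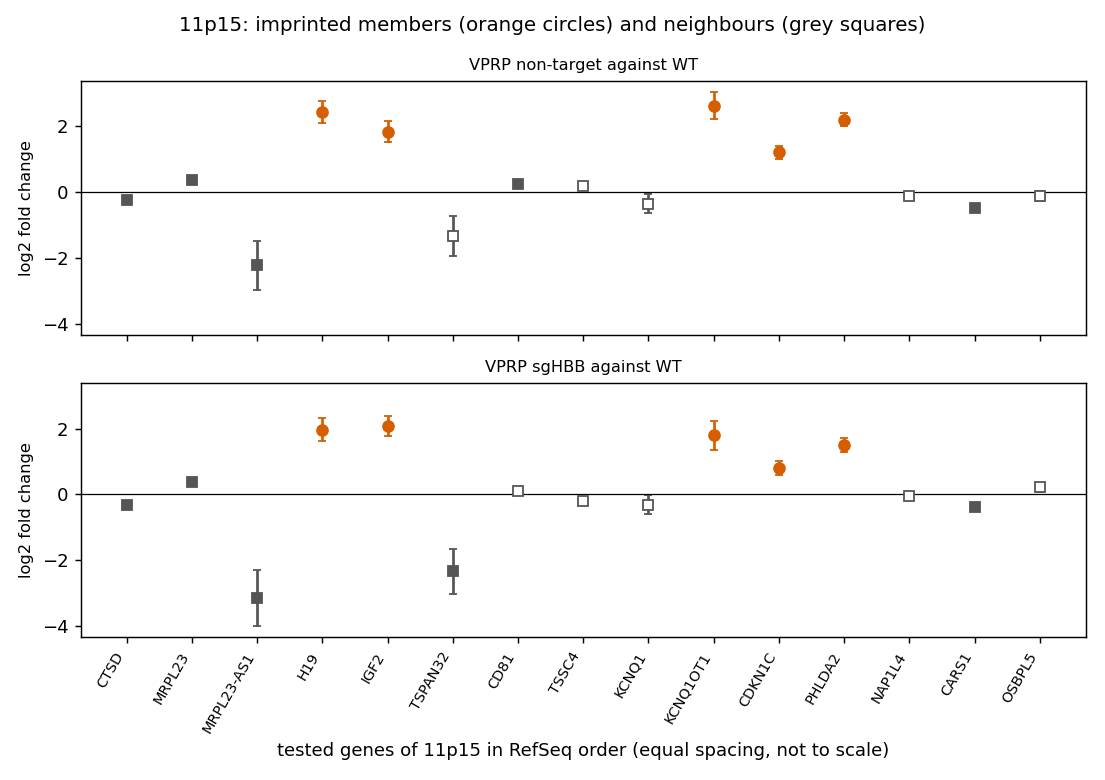
Log2 difference from WT of 5 members and 10 neighbours at 11p15 in the order of the RefSeq table, for VPRP non-target and VPRP sgHBB (both panels on 1 scale; error bars are SE; filled points have adjusted p under 0.05 with edgeR). SLC22A18 had no place in that order and is left out; the members lie above 0 in both panels while most neighbours lie near or below it.

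At 15q11, the region behind Prader-Willi and Angelman syndromes, 2 of the 6 members with a row passed the filter on low counts, and 1 of them was switched between high and low by group. MKRN3 (ENSG00000179455) is a paternally expressed gene for a ring-finger protein that holds back puberty. It stood at 3.56 and 3.23 CPM in WT, 4.88 and 4.86 with VPR sgHBB, 0.245 and 0.0589 with p300 sgHBB, 0.405 and 0.138 with p300 D1399Y sgHBB, 0.196 and 0.166 with VPRP sgHBB, and 5.04 and 3.93 with VPRP non-target. In counts this was 103, 148 and 154 over the WT, VPR sgHBB and VPRP non-target pairs, against 5, 9 and 6 over the p300 sgHBB, p300 D1399Y sgHBB and VPRP sgHBB pairs. No library of the former 3 groups came near one of the latter 3. MKRN3 reached the level of the filter in the 6 libraries of the former groups and in no other, so it was tested because it was high there, and its p-values carry that selection.

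MKRN3 was 18.2-fold lower than WT in VPRP sgHBB (log2 -4.18, SE 0.5, adjusted p = 8.2e-09), 21.6-fold lower in p300 sgHBB (log2 -4.43, SE 0.517, adjusted p = 1.19e-08) and 11.7-fold lower in p300 D1399Y sgHBB (log2 -3.55, SE 0.465, adjusted p = 2.61e-07). With so few counts the size moved when a library was left out: to log2 -5.68 or -3.75 without p300 sgHBB replicate 1 or 2, and to -4.57 without p300 D1399Y sgHBB replicate 1. Between the guides, VPRP sgHBB was 24-fold lower than VPRP non-target (adjusted p = 3.7e-09), and it was 26-fold lower than VPR sgHBB (adjusted p = 4.74e-10). VPRP cells were high with the non-targeting guide and low with sgHBB, and sgHBB cells were high with VPR and low with the other 3 fusions. MAGEA10, a cancer-testis gene on the X chromosome, was high and low in the same groups, with means of 9.46, 25.9 and 32 CPM in WT, VPR sgHBB and VPRP non-target and 0, 0.0692 and 0.213 in p300 sgHBB, p300 D1399Y sgHBB and VPRP sgHBB. TWIST2, a mesenchymal transcription factor gene, had the opposite order, at 0, 0 and 0.0304 CPM in the former 3 groups and 4.01, 4.32 and 3.52 in the latter. MAGEA10 and TWIST2 were chosen as context of the groups with earlier results of these data known, so their match is no independent support. Which property shared by these groups MKRN3 followed was not tested.

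Of the other 15q11 members, UBE3A was the 1 with enough reads for a test. UBE3A (ENSG00000114062), a ubiquitin ligase gene that is imprinted in neurons and read from both copies in most other cells, stood at 57.1 ± 0.457 CPM in WT, 59.8 ± 0.247 with VPR sgHBB, 63.4 ± 3.34 with p300 sgHBB, 61.4 ± 3.54 with p300 D1399Y sgHBB, 54.2 ± 2.02 with VPRP sgHBB and 49.5 ± 2.03 with VPRP non-target (SD, n = 2). The range between groups was therefore narrow. UBE3A was 1.15-fold lower in VPRP non-target than in WT (log2 -0.21, adjusted p = 0.0323) and 1.17-fold lower in VPRP sgHBB than in p300 sgHBB (adjusted p = 0.038), but the former call was lost in 5 and the latter in 8 of the 11 alternative fits. SNRPN, a splicing factor gene at the imprinting centre, had 2 counts over all 12 libraries, MAGEL2, which takes part in endosomal protein recycling, 2, SNHG14, the host RNA that runs antisense to UBE3A, 14, and NDN, an antagonist of cell growth, 0. SNRPN and SNURF are read from 1 transcript, and how reads on overlapping genes were counted is not given in the sources used here, so the low SNRPN count is not a measure of its transcription. For a gene with 0 counts in a group, the limit of 3 counts over its 2 libraries corresponds to 0.0869 to 0.0989 CPM.

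The starts of MKRN3, NDN and MAGEL2 are shown side by side because these adjacent paternally expressed genes had such unlike levels, NDN and MAGEL2 near 0 in every group and MKRN3 changing between groups. Each line is the 250 bases before the RefSeq start on GRCh38.p14, 5′ to 3′ along the gene, with CpG in capitals. The MKRN3 window is chr15:23565424-23565673 on the plus strand and holds 10 CpG pairs, the NDN window is chr15:23687306-23687555 on the minus strand and holds 30, and the MAGEL2 window is chr15:23647868-23648117 on the minus strand and holds 8.
MKRN3: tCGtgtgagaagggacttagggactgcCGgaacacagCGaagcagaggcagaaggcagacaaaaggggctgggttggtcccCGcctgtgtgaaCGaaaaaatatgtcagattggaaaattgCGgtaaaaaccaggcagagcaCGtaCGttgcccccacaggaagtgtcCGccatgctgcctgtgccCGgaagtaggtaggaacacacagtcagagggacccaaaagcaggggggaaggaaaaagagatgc
NDN: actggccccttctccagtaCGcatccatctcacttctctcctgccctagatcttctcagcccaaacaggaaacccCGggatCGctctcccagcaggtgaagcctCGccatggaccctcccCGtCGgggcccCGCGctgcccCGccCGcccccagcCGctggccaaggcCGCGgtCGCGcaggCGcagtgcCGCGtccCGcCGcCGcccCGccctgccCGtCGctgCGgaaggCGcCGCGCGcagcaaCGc
MAGEL2: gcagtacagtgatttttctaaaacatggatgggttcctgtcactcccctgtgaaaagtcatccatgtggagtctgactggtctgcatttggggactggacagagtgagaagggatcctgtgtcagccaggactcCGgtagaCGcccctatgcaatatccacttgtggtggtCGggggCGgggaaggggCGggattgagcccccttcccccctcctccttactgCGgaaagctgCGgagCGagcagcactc

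With the 50 bases after the start included, the CpG counts were 15 for MKRN3, 35 for NDN and 9 for MAGEL2, so NDN was above and MAGEL2 below the median of 14, and MKRN3 lay next to it. The hexamer TGCCGC, which the imprint-protecting protein ZFP57 binds when methylated, was searched on both strands. It occurred in the NDN window, and in 16.7% of all windows in the table; over the 21 members with a RefSeq window, 22 of 50 windows held it. The YY1 motif AANATGGC occurred in 6 of the 50 member windows and in 6.58% of all windows, and the NRF1 palindrome in 1 of the 50 and in 1.24% of all. Several windows belong to 1 gene, some of them overlap, and the SNURF window is also a window of SNRPN. The 50 windows are therefore not separate sequences, and a match describes letters, not binding.

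At 14q32 none of the 4 members could be tested. MEG3, a maternally expressed noncoding RNA with tumour suppressor properties, had 4 counts over the 12 libraries, MEG8, another noncoding RNA of the cluster, 1, DLK1, a paternally expressed Notch pathway ligand that blocks adipocyte maturation, 10, and RTL1, a retrotransposon-derived gene needed in the placenta, 2. No library held more than 3 counts of any of them. These 4 members were thus at the limit of detection in every group, VPRP groups included, and no difference in them was detectable at this depth. DIO3, at the edge of the cluster, had enough reads for a test and is described further below.

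On 7q, SGCE of the paternally expressed pair PEG10 and SGCE changed between groups, while PEG10 had too few reads for a comparison of the pair. SGCE (ENSG00000127990), the epsilon-sarcoglycan gene mutated in myoclonus dystonia, stood at 10.8 and 12.9 CPM in WT, 15.8 and 21.6 with VPR sgHBB, 15.3 in both p300 sgHBB libraries, 14 and 13.7 with p300 D1399Y sgHBB, 14.2 and 11.7 with VPRP sgHBB, and 7.41 and 7.54 with VPRP non-target. The VPR sgHBB libraries were the highest and the VPRP non-target libraries the lowest, with WT and VPRP sgHBB overlapping in between. SGCE rose 1.57-fold in VPR sgHBB (log2 0.65, SE 0.15, adjusted p = 0.0014; lost without VPR sgHBB replicate 2, adjusted p = 0.0931) and fell by 0.67 on the log2 scale in VPRP non-target (SE 0.164, adjusted p = 0.000718). It was 1.72-fold higher in VPRP sgHBB than in VPRP non-target (log2 0.79, SE 0.161, adjusted p = 0.000307). SGCE was also called higher than WT in p300 sgHBB (log2 0.36, SE 0.152, adjusted p = 0.0498). That call was lost with DESeq2, relative log expression factors, no filter on low counts and the replicate block. It was also lost without WT replicate 1 and without either p300 sgHBB replicate. PEG10 (ENSG00000242265), a retrotransposon-derived placental gene that starts next to SGCE, ranged from 0.202 to 1.21 CPM over the 12 libraries and was called in no comparison. Its group means were 0.36 CPM in WT and 0.857 in VPRP non-target, and it reached the level of the filter in 4 libraries. MEST, a paternally expressed hydrolase gene, had 41 counts over all libraries and was not tested.

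On 20q, GNAS (ENSG00000087460), which encodes the stimulatory G protein alpha subunit that links hormone receptors to cyclic AMP and is imprinted in a tissue-dependent way, showed 2 levels. It stood at 1089 and 1099 CPM in WT, 1103 and 1078 with VPR sgHBB, and 1037 and 1023 with p300 D1399Y sgHBB, and at 775 and 798 with p300 sgHBB, 787 and 779 with VPRP sgHBB, and 706 and 695 with VPRP non-target. All 6 libraries with a catalytically active p300 part were below all 6 without one. Their groups also had the highest EP300 means, so catalysis and EP300 level cannot be told apart in this split. Against WT, GNAS was 1.39-fold lower in p300 sgHBB (log2 -0.48, SE 0.0666, adjusted p = 3.76e-07), 1.40-fold lower in VPRP sgHBB (adjusted p = 1.47e-07) and 1.56-fold lower in VPRP non-target (adjusted p = 3.82e-10). The active form was 1.31-fold lower than D1399Y (log2 -0.39, SE 0.0665, adjusted p = 2.91e-05), and VPRP sgHBB was 1.39-fold lower than VPR sgHBB (adjusted p = 3.07e-07). Several transcripts start in this locus, some maternally and some paternally expressed and 1 antisense, and these counts do not separate them.

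The other 3 members of 20q were at lower levels. L3MBTL1 (ENSG00000185513), a paternally expressed Polycomb-related protein that compacts chromatin, stood at 6.12 and 6.86 CPM in WT, 4.56 and 4.31 with VPR sgHBB, 3.55 and 2.47 with p300 sgHBB, 3.41 and 4.56 with p300 D1399Y sgHBB, 2.35 and 3.26 with VPRP sgHBB, and 4.56 and 2.88 with VPRP non-target. The WT libraries were above all the others. It was 2.29-fold lower in VPRP sgHBB (log2 -1.20, SE 0.262, adjusted p = 0.000192) and 2.16-fold lower in p300 sgHBB (log2 -1.11, SE 0.26, adjusted p = 0.000644). In VPRP non-target it was 1.75-fold lower (adjusted p = 0.00601), a call lost without VPRP non-target replicate 2, and in p300 D1399Y sgHBB 1.64-fold lower (adjusted p = 0.0299), lost in 4 of 11 alternatives.

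NNAT (ENSG00000053438), a paternally expressed small membrane protein of the developing brain, was close to 0 outside VPRP non-target: 0 and 0.453 CPM in WT, 0 and 0.0684 with VPR sgHBB, 0.0612 and 0.118 with p300 sgHBB, 0.231 and 0.138 with p300 D1399Y sgHBB, 0.391 and 0.221 with VPRP sgHBB, and 1.28 and 0.776 with VPRP non-target. Both VPRP non-target libraries were above the rest, with 35 counts in all against 7 in WT. NNAT rose 4.33-fold there (log2 2.11, SE 0.782, adjusted p = 0.02). The call was lost with DESeq2 (adjusted p = 0.136), without WT replicate 1 (log2 1.15, adjusted p = 0.279) and without VPRP non-target replicate 1 (adjusted p = 0.178), and without WT replicate 2 the log2 value was 7.05, against a lone WT library with 0 counts. NNAT passed the filter through these 2 libraries. BLCAP, a growth-restraining gene whose intron holds NNAT, was between 48.2 ± 1.61 and 59.5 ± 0.902 CPM in the group means (SD, n = 2) and was called in no comparison.

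At 8q24, KCNK9 was higher than WT in the 3 groups with active p300. TRAPPC9 was lower than WT in these groups and also in p300 D1399Y sgHBB. KCNK9 (ENSG00000169427), a maternally expressed potassium channel, stood at 0.269 and 0.259 CPM in WT, 0.317 and 0.205 with VPR sgHBB, 0.979 and 1.35 with p300 sgHBB, 0.0578 and 0.138 with p300 D1399Y sgHBB, 2.22 and 1.44 with VPRP sgHBB, and 3.40 and 3.10 with VPRP non-target. The 6 libraries with active p300 were above the other 6, as in GNAS with the sign turned. Here too their groups were those with the highest EP300 means, so catalysis and EP300 level cannot be told apart. KCNK9 rose 4.33-fold in p300 sgHBB (log2 2.12, SE 0.592, adjusted p = 0.00361), 6.71-fold in VPRP sgHBB (log2 2.75, SE 0.558, adjusted p = 7.62e-05) and 12.0-fold in VPRP non-target (log2 3.59, SE 0.523, adjusted p = 3.98e-07). Between active and mutant p300 the summed counts were 39 and 3, a ratio of 12.4 with a 95% counting interval of 3.94 to 62.7 (edgeR adjusted p = 0.00027). It passed the filter through the groups where it was high, and counting intervals cover counting error only. Against VPRP non-target, VPRP sgHBB differed by log2 -0.84 (SE 0.381, adjusted p = 0.0961), which did not pass.

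TRAPPC9 (ENSG00000167632), a subunit of a vesicle tethering complex linked to microcephaly, averaged 53.3 ± 3.03 CPM in WT and 34.4 ± 1.07 (VPRP sgHBB) to 45.2 ± 8.27 (VPR sgHBB) in the fusion groups (SD, n = 2). It fell in 4 of the 5 comparisons with WT, by 0.63 in VPRP sgHBB, 0.52 in p300 D1399Y sgHBB, 0.42 in VPRP non-target and 0.39 in p300 sgHBB on the log2 scale, and VPR sgHBB was not called. The tested neighbours of the 2 genes moved in the direction of TRAPPC9, not of KCNK9. Of ST3GAL1, ZFAT, KHDRBS3, CHRAC1, AGO2 and PTK2, 6 of 6 were lower in both VPRP groups (median log2 -1.11 in VPRP sgHBB and -0.47 in VPRP non-target). In p300 sgHBB 5 were lower, in p300 D1399Y sgHBB 5 and in VPR sgHBB 3. Over all genes, 28% were called lower in VPRP sgHBB and 28.5% in VPRP non-target. The shares were 21.6% in p300 sgHBB, 14.5% in p300 D1399Y sgHBB and 11.5% in VPR sgHBB.

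Of the remaining loci, GRB10 at 7p12 was lower than WT in every fusion group. GRB10 (ENSG00000106070) encodes an adaptor that restrains insulin and growth factor receptors, and its imprinting depends on tissue and transcript. It stood at 149 and 142 CPM in WT, 97.1 and 96.3 with VPR sgHBB, 87.7 and 85.9 with p300 sgHBB, 103 and 104 with p300 D1399Y sgHBB, 54.0 and 59.2 with VPRP sgHBB, and 49.7 and 45.0 with VPRP non-target. The order of the groups was WT, then p300 D1399Y sgHBB, VPR sgHBB and p300 sgHBB, then the VPRP groups, and no libraries of 2 neighbouring groups overlapped. Relative to WT, GRB10 was 3.08-fold lower in VPRP non-target (log2 -1.62, SE 0.0783, adjusted p = 1.26e-18), 2.57-fold lower in VPRP sgHBB (log2 -1.36, SE 0.0772, adjusted p = 9.72e-17), 1.68-fold lower in p300 sgHBB (adjusted p = 4.94e-10), 1.51-fold lower in VPR sgHBB (adjusted p = 3.83e-07) and 1.41-fold lower in p300 D1399Y sgHBB (adjusted p = 3.32e-06). VPRP sgHBB was lower than VPR sgHBB by 1.71-fold (adjusted p = 4.38e-10) and lower than p300 sgHBB by 1.53-fold (adjusted p = 1.86e-07). GRB10 and IGF2 act on the same growth pathway in opposite senses. In the VPRP groups and in VPR sgHBB the former was called lower and the latter higher. In p300 sgHBB and p300 D1399Y sgHBB GRB10 was called lower and IGF2 was not called. Whether the 2 genes are linked here was not tested.

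On 6q, PLAGL1 (ENSG00000118495), a paternally expressed zinc finger gene linked to transient neonatal diabetes, stood at 100.1 and 103 CPM in WT and between 52.6 and 70.3 CPM in all 10 fusion libraries. It was called lower in all 5 comparisons with WT, by 0.57 (VPRP non-target) to 0.85 (p300 D1399Y sgHBB) on the log2 scale. PLAGL1 and GRB10 were the 2 members lower in all 5, and no member was higher in all 5. WT differed from every fusion group in its sort, for BFP alone. In changes shared by all 5 comparisons, fusion and sort cannot be told apart. IGF2R (ENSG00000197081), the receptor that clears IGF2 and targets lysosomal enzymes, is imprinted in mice and variably in humans. It stood at 242 ± 13.1 CPM in WT, 203 ± 25.4 with VPR sgHBB, 152 ± 9.65 with p300 sgHBB, 197 ± 13.1 with p300 D1399Y sgHBB, 210 ± 5.52 with VPRP sgHBB and 242 ± 11.1 with VPRP non-target (SD, n = 2). The p300 sgHBB libraries were the lowest: 1.58-fold below WT (log2 -0.66, SE 0.0788, adjusted p = 1.6e-08), 1.30-fold below D1399Y (adjusted p = 0.000434) and 1.38-fold below VPRP sgHBB (adjusted p = 2.54e-05). Other IGF2R calls (VPRP sgHBB, VPR sgHBB and p300 D1399Y sgHBB against WT, and VPRP sgHBB against VPRP non-target) were each lost in at least 2 of 11 alternatives.

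INPP5F (ENSG00000198825), a phosphoinositide phosphatase gene at 10q26 with a paternally expressed variant, stood at 22.4 and 18.2 CPM in WT, 18.8 and 17.4 with VPR sgHBB, 24.5 and 24.8 with p300 sgHBB, 18.7 and 17.5 with p300 D1399Y sgHBB, 34.8 and 36.5 with VPRP sgHBB, and 38.2 and 39.2 with VPRP non-target. The 6 libraries with active p300, again those of the groups with the highest EP300 means, were above the other 6. It rose 1.76-fold in VPRP sgHBB (adjusted p = 8e-08) and 1.91-fold in VPRP non-target (adjusted p = 4.56e-09), and the active form of p300 exceeded D1399Y by 1.36-fold (log2 0.44, SE 0.113, adjusted p = 0.00296). Its call in p300 sgHBB against WT (log2 0.28, adjusted p = 0.0403) was lost in 6 of 11 alternatives. ZDBF2 at 2q33, a paternally expressed gene of the brain, averaged 39.6 ± 2.33 CPM in WT and fell to 22.2 ± 0.324 in VPRP non-target (log2 -0.84, SE 0.102, adjusted p = 1.07e-08) and 29.2 ± 2.59 in VPRP sgHBB (log2 -0.44, adjusted p = 0.000276; SD, n = 2). ZDBF2 was also called lower than WT in p300 sgHBB, at a mean of 32.2 CPM (log2 -0.30, SE 0.0983, adjusted p = 0.0117). That call was lost without p300 sgHBB replicate 2 or WT replicate 2. Not tested for low counts were DIRAS3 at 1p31, a RAS-related tumour suppressor gene (81 counts over 12 libraries), NAP1L5 at 4q22 (12 counts), PEG3 at 19q13, a zinc finger gene that governs maternal behaviour in mice (10 counts), and its neighbour ZIM2 (0 counts).

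**Figure D3:**
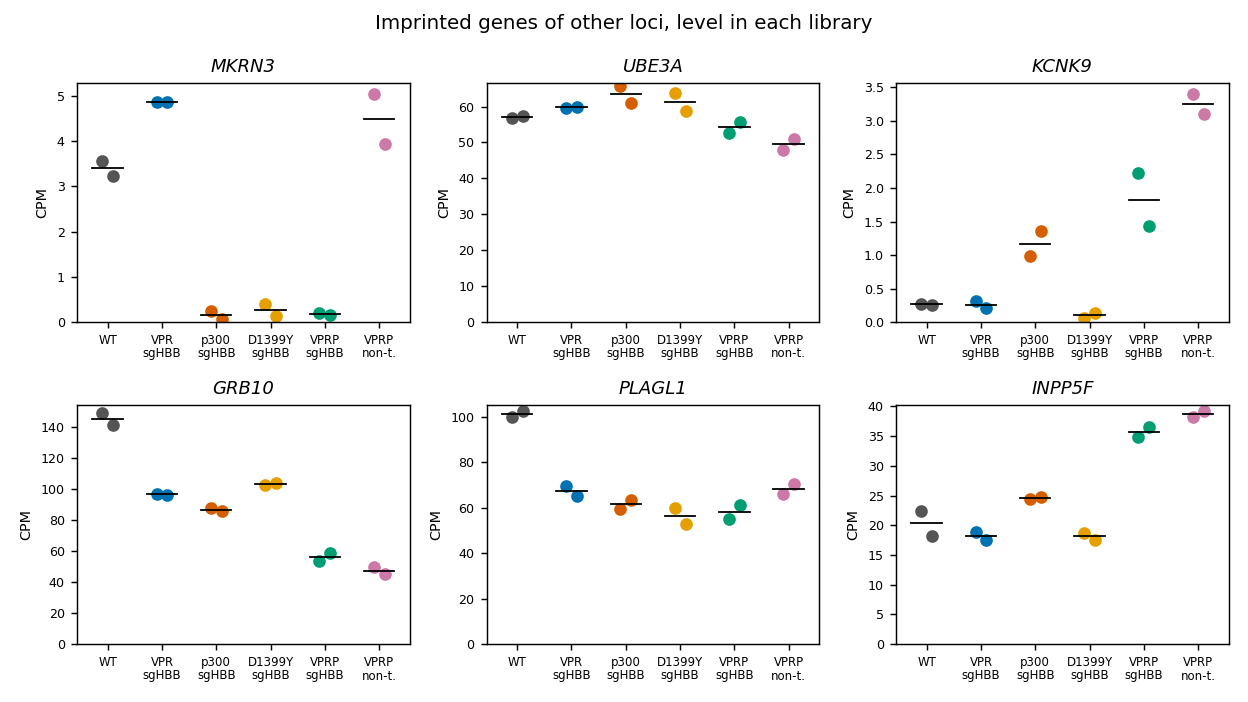
CPM in each library for MKRN3, UBE3A, KCNK9, GRB10, PLAGL1 and INPP5F by group (points are libraries, 2 per group; lines are group means; each panel has its own linear scale). MKRN3 is near 0 in p300 sgHBB, p300 D1399Y sgHBB and VPRP sgHBB; KCNK9 and INPP5F are highest in the VPRP groups, GRB10 is lowest there, and PLAGL1 is highest in WT.

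Counted over loci, the calls among the tested members were many where calls among all genes were many. In VPRP sgHBB against WT 8 members rose and 8 fell of 21 tested (59.1% of all genes called). In VPRP non-target, it was likewise 8 and 8 (59.7%). In p300 sgHBB 4 rose and 8 fell (46.1% of all genes called), in p300 D1399Y sgHBB 1 rose and 6 fell (30.2%), and in VPR sgHBB 2 rose and 3 fell (25.3%). With upper-quartile factors the split was 7 and 8 in p300 sgHBB and 2 and 6 in p300 D1399Y sgHBB. The median log2 difference of the tested members was between -0.09 and 0.15 in these 5 comparisons, beside medians of at most 0.04 over all genes. At 2-fold or more, 8 members passed in each VPRP group (20% of all genes in VPRP sgHBB and 21.2% in VPRP non-target), 4 in p300 sgHBB (11.6%), 2 in p300 D1399Y sgHBB (6.02%) and 1 in VPR sgHBB (3.09%). Some low-count members passed the filter through the groups where they were high, so these counts describe the tested members and are not support for a shift of imprinted genes as a class.

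Between fusion groups, VPRP sgHBB against VPR sgHBB gave 8 higher and 8 lower (24.7% and 25.1% of all genes called higher and lower), and VPRP sgHBB against VPRP non-target gave 4 and 4 (29.3%). VPRP sgHBB against p300 sgHBB gave 6 higher and 2 lower (27.9%), or 6 and 1 with relative log expression factors, and p300 sgHBB against p300 D1399Y sgHBB gave 3 and 4 (30.4%). At 2-fold or more these 4 comparisons, in the same order, held 5 (13.8%), 1 (5.77%), 3 (4.62%) and 1 (5.47%) of the tested members. These comparisons share libraries with each other and with those against WT.

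**Figure D4:**
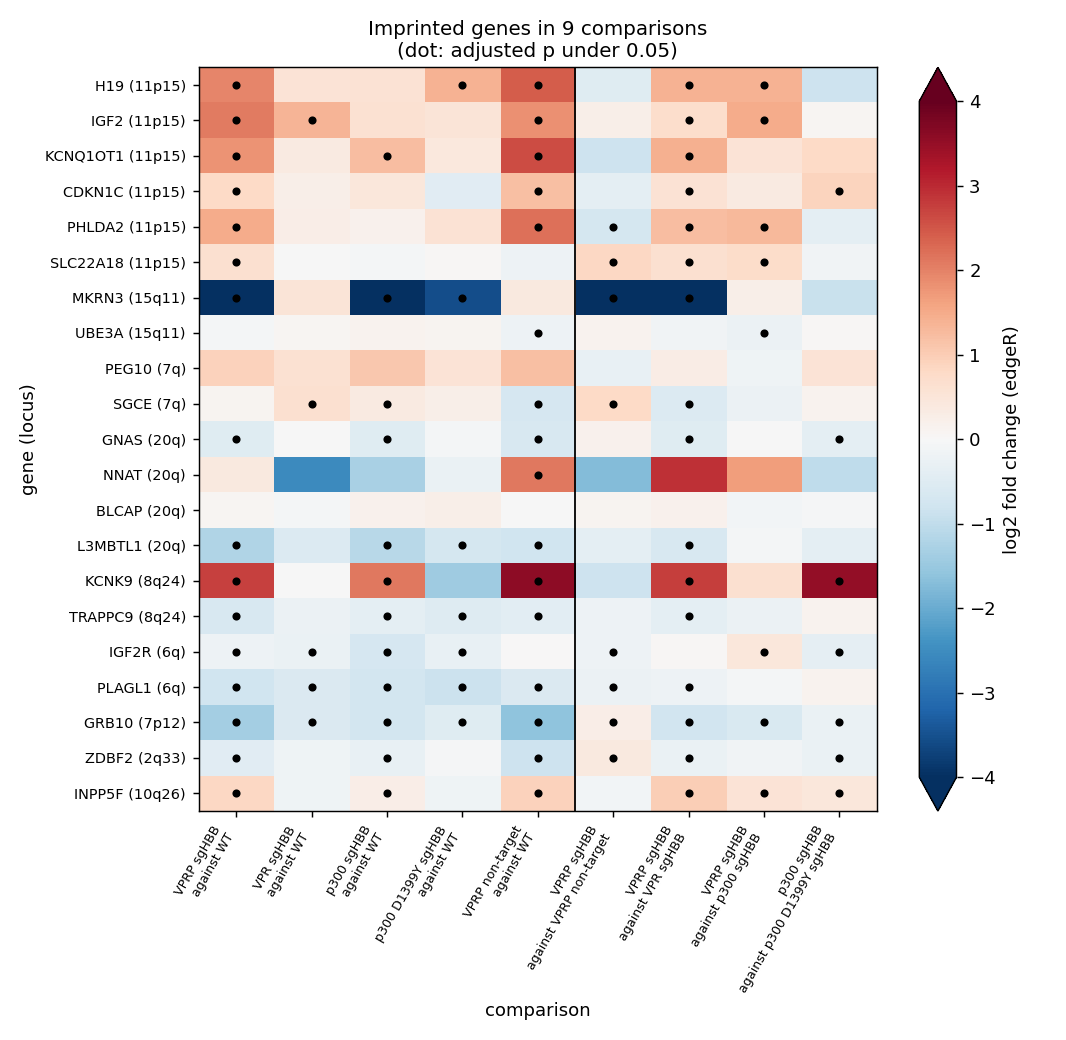
Log2 differences of the 21 tested members (rows) in the 9 comparisons (columns), red for higher and blue for lower in the first-named group, with colours limited at 4 in either direction and dots at adjusted p under 0.05 with edgeR. The 11p15 members are red in VPRP sgHBB against WT and, apart from SLC22A18, in VPRP non-target against WT, GRB10 and PLAGL1 are blue in all 5 columns against WT, and MKRN3 is blue in every column that sets p300, D1399Y or VPRP sgHBB against a group where it was high.

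The enzymes and binding proteins that set or read imprints, and the RNA-binding proteins of IGF2, were examined as a separate list of 29 genes, of which 28 had a row and 21 were tested. Of the 21, 4 rose and 12 fell in VPRP sgHBB against WT (median log2 -0.47), where 31.1% of all genes rose and 28% fell. In VPRP non-target 3 rose and 13 fell (median -0.48; all genes 31.2% and 28.5%), and in p300 sgHBB 2 rose and 12 fell (-0.28; 24.5% and 21.6%). In VPR sgHBB 2 rose and 7 fell (-0.15; 13.8% and 11.5%), and in p300 D1399Y sgHBB 2 rose and 3 fell (-0.07; 15.7% and 14.5%). Active against mutant p300 gave 0 higher and 10 lower, beside 15.4% and 15% of all genes. The 4 named were those with the largest changes: in VPRP non-target, IGF2BP2 fell by 1.22 on the log2 scale (SE 0.0875, from 77.0 to 33 CPM), SETDB1 by 1.11 (63.4 to 29.4), IGF2BP3 by 1.08 (67.8 to 32.1) and IGF2BP1 by 1.07 (327 to 156). The IGF2BP proteins bind IGF2 and other RNAs and affect their stability and translation. SETDB1 is the histone H3 lysine 9 methyltransferase recruited with KAP1 to silenced loci. In the same libraries IGF2 was higher; whether the 2 are linked was not tested.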

How the data were processed

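Raw read counts per Ensembl gene were deposited by the authors as 1 table of 12 libraries, on which all results rest. The submitters' processing notes name STAR 2.5, HTSeq 0.6.1, DESeq2 1.24.0, BWA, deepTools and hg19; their roles, the annotation and the treatment of strand and of overlapping genes were not given in the sources used here. Nested or antisense pairs (SNRPN and SNURF, KCNQ1OT1 and KCNQ1, UBE3A and SNHG14, NNAT and BLCAP, GNAS and its antisense RNA) therefore have uncertain counts. Symbols were matched through gene name tables, and 33626 of 48162 rows had one.

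Genes were kept with edgeR 4.0.16's filterByExpr (minimum count 10, minimum total 15), which left 16694, scaled with TMM and fitted with glmQLFit over all 12 libraries with a mean per group (R 4.3.3). Contrasts were tested with glmQLFTest and adjusted with Benjamini-Hochberg over all tested genes. CPM used TMM-scaled totals and is not per length, so levels of different genes were not compared. Alternatives were other scaling factors, other filters, a replicate block, the compared groups alone, DESeq2 1.42.0 and each replicate left out. Members with a call of at least 2-fold in any of the 9 comparisons were given by library, with the best known genes of each locus, and up to 4 genes with the largest called change of at least 2-fold against WT from each further list; other members were given by ranges. SGCE and INPP5F were added by library after their values were seen. Members and lists were chosen with earlier results of these data known. Promoter windows came from RefSeq on GRCh38.p14, and no other coordinates were used because the counts are on hg19.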

Additional observations from a re-analysis of the deposited data

How the results depend on the processing

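The depth limits the low-count members: with 2 libraries a group, KCNQ1OT1, NNAT, KCNK9 and MKRN3 had sizes that 1 library could move, and the 13 untested members allow no statement on differences. No called value turned its direction under any alternative. Of the 95 called member values, 90 were kept with relative log expression factors, 89 with upper-quartile factors, 88 with no filter on low counts, 92 with the replicate block, 91 with the compared groups alone and 80 with DESeq2; leaving out 1 library at a time kept 306 of 380. The numbers of called members with 1 library left out were 14 to 16 in VPRP sgHBB against WT, 3 to 5 in VPR sgHBB against WT, 8 to 12 in p300 sgHBB against WT, 5 to 7 in p300 D1399Y sgHBB against WT and 14 to 15 in VPRP non-target against WT. Between fusion groups they were 5 to 6 for VPRP sgHBB against VPRP non-target (main count 8; 5 without VPRP sgHBB replicate 2, VPRP non-target replicate 1 or VPRP non-target replicate 2), 10 to 14 against VPR sgHBB (16; 10 without VPRP sgHBB replicate 1), 6 to 7 against p300 sgHBB, and 4 to 6 for p300 sgHBB against p300 D1399Y sgHBB (7; 4 without p300 D1399Y sgHBB replicate 2). In VPR sgHBB against WT the 5 fell to 3 without VPR sgHBB replicate 2. Fewer samples enter each of these fits. Same-numbered replicates of different groups did not deviate together (correlations -0.113 to 0.101 over 15 pairs of groups), so the numbers were not taken as pairs; with the replicate block, p300 sgHBB against WT had 3 higher and 8 lower calls, VPRP sgHBB against VPRP non-target 4 and 3, and VPRP sgHBB against VPR sgHBB 8 and 7, and the other 6 comparisons kept their numbers.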

Other observations

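Of 45 further genes reported as imprinted in some tissue, 41 had a row and 26 were tested, and 4 of these are among the 11p15 neighbours above. In comparison with WT, 9 rose and 6 fell in VPRP non-target (57.7% called, beside 59.7% of all genes), 7 rose and 5 fell in VPRP sgHBB (46.2% beside 59.1%), 7 and 5 in p300 sgHBB (46.2% beside 46.1%), 5 and 5 in p300 D1399Y sgHBB (38.5% beside 30.2%), and 5 and 1 in VPR sgHBB (23.1% beside 25.3%). TFPI2, a protease inhibitor gene of the 7q cluster of SGCE and PEG10, rose in all 5 groups, from 0.497 CPM in WT to 6.85 in p300 sgHBB (log2 3.77, SE 0.353, edgeR adjusted p = 1.09e-10), 5.74 in VPRP sgHBB, 4.26 in VPRP non-target, 2.54 in VPR sgHBB and 1.52 in p300 D1399Y sgHBB. TFPI2 was thus raised in VPRP non-target, where SGCE fell, and in VPR sgHBB, where SGCE rose. DIO3, the thyroid hormone inactivating deiodinase at the edge of the 14q32 cluster, rose from 0.166 CPM in WT to 1.34 in VPRP non-target (log2 2.96, adjusted p = 0.000408) and 1.19 in VPRP sgHBB (log2 2.78, adjusted p = 0.000974), while the 4 members of that cluster stayed near 0 counts. ZNF331, a zinc finger gene on 19q, rose in VPRP non-target (log2 2.43, adjusted p = 0.000101) and was lower in p300 D1399Y sgHBB, with a count ratio to WT of 0.0562 (95% counting interval 0.00134 to 0.359, adjusted p = 0.00671). ERAP2, a peptidase gene, had a count ratio of 10.5 in p300 D1399Y sgHBB against WT (3.30 to 53.5, adjusted p = 0.00212). Over the WT pair TFPI2 had 15 counts, DIO3 5, ZNF331 17 and ERAP2 3. Genes with so few counts can pass the filter through the groups where they were high, and their p-values then carry that selection.

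Among 106 tested genes next to the members, 26 rose and 40 fell in VPRP non-target against WT, and 27 rose and 40 fell in VPRP sgHBB. The called shares, 62.3% and 63.2%, were close to the 59.7% and 59.1% over all genes. Those with the largest changes were genes with no or few counts in WT, which passed the filter through groups where they were high, so their p-values carry that selection and support nothing. In VPRP non-target, DUXA, an early embryo homeobox gene near PEG3, was at least 16.1-fold higher (adjusted p = 5.37e-06), GABRA5, a neuronal GABA receptor gene at 15q11, at least 11.4-fold higher (adjusted p = 0.000172) and the pseudogene PPIAP3 on 20q at least 7.03-fold higher (adjusted p = 0.000433), with the floor of 3 counts over the WT group. In VPRP sgHBB the bounds were 4.84 for DUXA and 6.05 for GABRA5. GOLGA6L2 at 15q11 had a count ratio of 41.3 in VPRP non-target (95% counting interval 7.06 to 1666, adjusted p = 7.05e-05). GOLGA6L2 and PPIAP3 have near-identical relatives, so their reads may be shared between copies. GABRA5 and GOLGA6L2 rose in both VPRP groups, and MKRN3, also at 15q11, was low in 1 of them.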
